A study of Mus musculus with 18 samples.

Results

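The levels of 10 genes were followed in the spinal cords of mice carrying human ATXN2 and human TDP-43: Atxn2 itself, its paralog Atxn2l, the cytoplasmic poly(A)-binding proteins Pabpc1 and Pabpc4, the ATXN2 partner Lsm12, and the RNA granule proteins G3bp1, G3bp2, Ddx6, Tia1 and Tial1. They were taken by symbol, all 10 were found among the 54446 gene IDs of the count table, and all 10 passed the filter on low counts that kept 20635 genes. The data are total RNA from the spinal cord of 18 mice, 3 of each genotype, which were 10 months old and had no treatment. The labels give no level of dissection, and the caudal Hox values below differ between cords, so matched segments cannot be assumed. The genotypes were a double knock-in of hATXN2-Q33 and hTDP-43 (Q33;TDP-43), a double knock-in of hATXN2-Q22 and hTDP-43 (Q22;TDP-43), hTDP-43 alone (TDP-43), hATXN2-Q33 alone (Q33), hATXN2-Q22 alone (Q22), and non-transgenic C57BL/6 mice (NTg). Every knock-in was heterozygous, Q22 and Q33 name human ATXN2 with 22 and 33 glutamines, and each library is a different animal. The tissue is bulk cord, so a smaller share of a cell type and less RNA per cell cannot be told apart in any value given here.

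Ataxin-2 is a cytoplasmic RNA-binding protein that joins mRNAs through its Lsm domains and poly(A)-binding protein through a short peptide called PAM2, and it is recruited to stress granules, the assemblies of untranslated mRNA that form when translation initiation stalls. Its human form carries a glutamine tract whose intermediate expansions raise the risk of amyotrophic lateral sclerosis, in which TDP-43 aggregates in motor neurons. PABPC1 coats poly(A) tails, G3BP1 and G3BP2 nucleate stress granules, DDX6 is the RNA helicase of P-bodies, where mRNAs are decapped or stored, and TIA1 and TIAL1 are RNA-binding proteins of stress granules that also regulate splicing.

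The mouse sequences that bear on the knock-in and on the link to poly(A)-binding protein are shown first, read 5′ to 3′ from the coding strands of the GENCODE M21 transcripts Atxn2-201 and Atxn2l-206 (GRCm38). The first is the part of mouse Atxn2 that corresponds to the site of the human glutamine tract, at chr5:121712086-121712130 on the plus strand (codons 151 to 165), with glutamine codons (CAG or CAA) in capitals. The next is the longest uninterrupted run of glutamine codons in that transcript, at chr5:121810934-121810969 (codons 1125 to 1136), marked in the same way.
Atxn2 amino-terminal stretch: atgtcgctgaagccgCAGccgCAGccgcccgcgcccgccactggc
Atxn2 longest run: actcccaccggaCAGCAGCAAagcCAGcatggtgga
Mouse Atxn2 had 2 separate glutamine codons in the amino-terminal stretch and at most 3 in a row anywhere in its 1286 codons, against the 22 or 33 glutamines that name the knock-ins.

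The PAM2 peptide, through which ataxin-2 binds poly(A)-binding protein, is encoded in both paralogs, at chr5:121796380-121796427 on the plus strand in Atxn2 (codons 881 to 896) and at chr7:126495215-126495262 on the minus strand in Atxn2l (codons 652 to 667). The capitals mark the 8 codons of the searched peptide core.
Atxn2 PAM2: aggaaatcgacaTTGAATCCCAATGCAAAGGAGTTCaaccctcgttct
Atxn2l PAM2: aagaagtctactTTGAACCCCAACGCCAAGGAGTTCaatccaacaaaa
The cores shared 21 of 24 bases, and all 8 codons encode the same residue in both genes. The search required the leucine, proline, alanine and phenylalanine, so the match at those residues was fixed beforehand. The remaining residues were free to differ.

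Library properties moved with the genotypes. Depth ran from 16061359 to 30978678 counts, with a median of 23807573.5. Mitochondrial rRNA took 28.7%, 26.3% and 23.4% of the counts in Q33;TDP-43 cords and 12.7% to 23.4% in the other 15. A set of 6 Hox genes of the caudal body axis had a mean log2 CPM of 1.21, 3.54 and 0.55 in Q33;TDP-43 cords, were also above 0 in Q33 replicates 2 and 3 and Q22;TDP-43 replicate 1, and were below 0 in the other 12 cords. The summed level of 10 neuronal markers was 9160 to 10800 CPM in Q33;TDP-43 cords, 5600 to 9440 CPM in the other 15 and 6200 to 7130 CPM in NTg cords, and against NTg 3 of the 10 were called higher and 1 lower. That of 6 oligodendrocyte markers was 9840 to 12300 CPM in Q33;TDP-43 cords and 13400 to 15000 CPM in NTg cords, with 1 called lower. That of 6 astrocyte markers was 5550 to 7180 and 7150 to 7520 CPM in the same order, with 3 called lower, and that of 6 microglial markers 179 to 205 and 235 to 293 CPM, with 2 called lower. The summed Y-linked level was 7.34 to 7.65 on the log2 CPM scale in Q22 cords and 0.81 to 1.58 in NTg cords. Each other genotype had cords of both kinds, at 0.79 to 1.79 or at 7.29 to 7.73. The labels give no sex, and in Q22 against NTg the genotype and the Y-linked level cannot be told apart. Fits with the Hox level, the mitochondrial rRNA share or the Y-linked level as a term are given beside the called members. The part of the cell type markers in them was not tested. Tardbp, the mouse counterpart of the other knocked-in gene, had 118 to 127 CPM in Q33;TDP-43 cords and 124 to 127 CPM in NTg cords (log2 fold change -0.04, SE 0.07, adjusted p = 0.73, edgeR).

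The members differed in level per length and little between cords. Relative to the summed exon length given in the file, G3bp2 had the highest level at 139 ± 16.8 TPM (counts per length, scaled to the same total in each library, with the SD over 18 libraries), followed by Ddx6 at 109 ± 15.5, Pabpc1 at 69.8 ± 13.5 and Atxn2l at 51.4 ± 10.1 TPM. Lsm12 had 43.7 ± 3.42 TPM, Tial1 37.2 ± 7.27, Atxn2 35.4 ± 5.14, G3bp1 18.7 ± 2.9, Tia1 17.3 ± 4.36 and Pabpc4 10.7 ± 1.84 TPM. Neighbours in this order overlapped in their ranges over cords in every case, although G3bp2 was above Ddx6, Ddx6 above Pabpc1, Pabpc1 above Atxn2l and Atxn2 above G3bp1 in each of the 18 libraries. Tial1 exceeded Atxn2 in 11 of 18 libraries and G3bp1 exceeded Tia1 in 12 of 18, so these neighbours were not separated. The order depends on the length used: the exons of Atxn2 and Tia1 sum to 15689 and 15750 bases, and with the length of a single coding transcript, an alternative chosen after the data were seen, Atxn2 had 124 TPM and moved to rank 4, while Lsm12 moved to rank 8 at 46.3 TPM. The level of Pabpc4 is uncertain. Of the 100-base windows of its transcript, 49.9% also occur in transcripts of other annotated genes. Read pairs that match several places are not counted. For Lsm12, Tia1, Pabpc1, G3bp1 and Ddx6 the share of such windows was 5.84%, 5.8%, 5.33%, 2.45% and 2.3%, and it was 0% for the other 4 members. For Tia1 the match is Gm44790, a gene model that overlaps it on the same strand. Gene models also overlap Atxn2, Pabpc4, G3bp1, G3bp2 and Ddx6 on the same strand, and how far their exons overlap was not analysed.

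**Figure D1:**
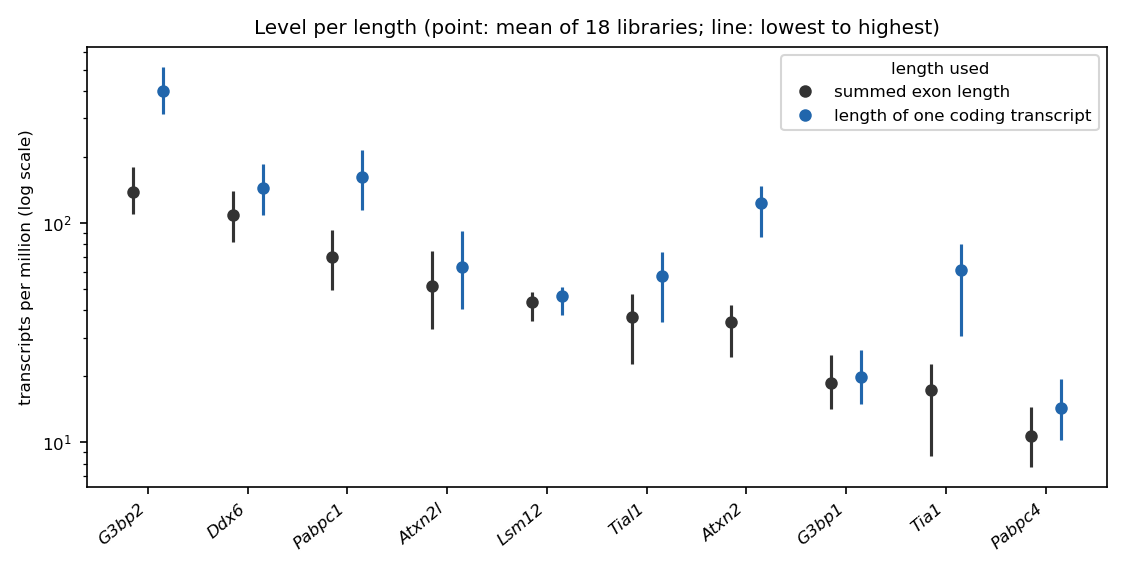
Level per length of the 10 members in TPM on a log axis, as the mean (point) and the lowest to highest of 18 libraries (line), computed with the summed exon length (black) and with the length of a single coding transcript (blue). G3bp2 is highest with both lengths, and Atxn2 moves from 35.4 to 124 TPM between them.

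Atxn2 (chr5:121711337-121816493, plus strand, mm10) was level across all genotypes. Its CPM (counts scaled to a common library total by TMM factors) was 186, 170 and 200 in Q33;TDP-43 cords, 167, 178 and 184 in Q22;TDP-43 cords, 190, 183 and 169 in TDP-43 cords, 175, 176 and 190 in Q33 cords, 176, 186 and 185 in Q22 cords, and 169, 193 and 185 in NTg cords. The genotypes overlapped throughout. In the comparison of human ATXN2 carriers with non-carriers (12 against 6 cords) the fold change was 0.998 (log2 95% interval -0.11 to 0.10, adjusted p = 0.99, edgeR quasi-likelihood test with Benjamini-Hochberg adjustment over 20635 genes). The SD of log2 CPM over the 18 cords was 0.0737 for Atxn2. Of the 9254 genes at 10 CPM or more, 2.55% had a smaller one. How many reads of human ATXN2 sequence align to the mouse gene was not analysed here, so the value does not separate the mouse and human alleles.

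Ddx6 and G3bp1 varied less still. Ddx6 ran from 262 to 306 CPM over the 18 cords, and G3bp1 from 39.2 to 46.2 CPM. Of the genes at 10 CPM or more, 0.195% had a smaller SD than Ddx6 and 1.23% a smaller SD than G3bp1. Neither was called by edgeR with TMM scaling in any comparison, with log2 fold changes in Q33;TDP-43 against NTg of 0.00 (SE 0.07, adjusted p = 0.98) for Ddx6 and -0.02 (SE 0.08, adjusted p = 0.89) for G3bp1 in edgeR. With library totals in place of TMM, Ddx6 was called lower against NTg (log2 -0.24, adjusted p = 0.037) and G3bp1 lower against Q22;TDP-43 (log2 -0.29, adjusted p = 0.033, edgeR). Tia1 was the most variable member, with a 1.76-fold range between its lowest and highest cord. Of the genes at 10 CPM or more, 80.4% had a smaller SD than Tia1.

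**Figure D2:**
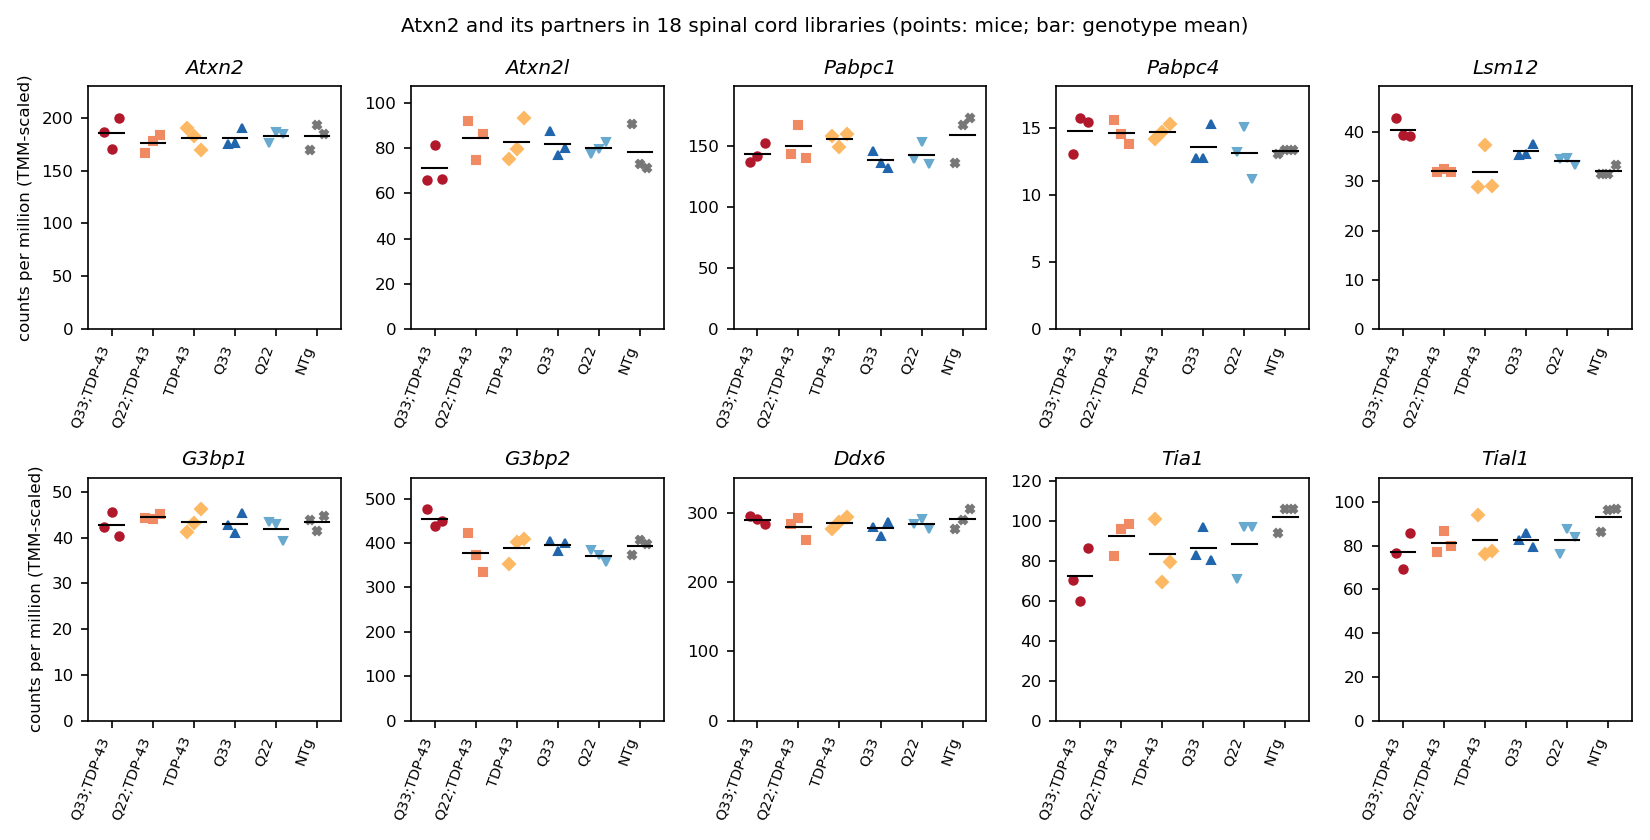
TMM-scaled CPM of each member in 18 spinal cord libraries, with the genotypes from Q33;TDP-43 to NTg on the horizontal axis, a point per mouse, a bar at the genotype mean and vertical axes from 0. Lsm12 lies between 39.2 and 42.9 CPM in Q33;TDP-43 cords and at most at 37.5 CPM in the other 15, while Atxn2, Ddx6 and G3bp1 are level across genotypes.

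The double knock-in with the longer tract was the genotype in which members passed the test. In Q33;TDP-43 against NTg, Lsm12 rose and Tia1 fell, which is 2 of 10 members, where 12.1% of all genes tested were called (5.68% higher and 6.39% lower). The members' median absolute log2 fold change was 0.15, against 0.26 over all genes tested and 0.20 over the 9254 genes at 10 CPM or more. The median signed log2 fold change was -0.01 for the members and -0.01 for all genes. A total of 18.8% of the genes at 10 CPM or more were called, so the members' count was close to the background.

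Lsm12 (chr11:102162497-102185296, minus strand, mm10) encodes an Lsm-domain protein found in ataxin-2 complexes, and in flies it takes part with ataxin-2 in circadian translation. Its CPM was 42.9, 39.4 and 39.2 in Q33;TDP-43 cords, 31.9, 32.4 and 31.8 in Q22;TDP-43 cords, 28.9, 37.4 and 29.1 in TDP-43 cords, 35.3, 35.5 and 37.5 in Q33 cords, 34.6, 34.8 and 33.2 in Q22 cords, and 31.4, 31.5 and 33.3 in NTg cords. All 3 Q33;TDP-43 cords lay above each of the other 15. Of all genes tested, 30.2% did not overlap between Q33;TDP-43 and NTg, 29.2% against Q22;TDP-43, 27.2% against TDP-43 and 22.7% against Q33. The Q33 cords lay above the Q22 and NTg cords, where 7.96% and 15.5% of all genes did not overlap. Relative to NTg, Lsm12 was 1.26-fold higher in Q33;TDP-43 (log2 0.34, SE 0.09, adjusted p = 0.025, edgeR). It was also 1.26-fold higher than in Q22;TDP-43 (log2 0.34, SE 0.09, adjusted p = 0.023, edgeR) and 1.27-fold higher than in TDP-43 (log2 0.35, SE 0.09, adjusted p = 0.021, edgeR). These 3 comparisons share the Q33;TDP-43 cords. Relative to Q33 alone the fold was 1.12 (log2 0.16, SE 0.09, adjusted p = 0.36), and in Q33 alone relative to NTg it was 1.13 (log2 0.17, SE 0.09, adjusted p = 0.69), both from edgeR. Scaling by library totals, which puts the median log2 fold change of all genes at -0.25 in this comparison, against -0.01 with TMM, gave Lsm12 a log2 fold change of 0.10 against NTg (adjusted p = 0.45, edgeR), 0.10 against Q22;TDP-43 (adjusted p = 0.41) and 0.13 against TDP-43 (adjusted p = 0.31). With the mitochondrial rRNA share as a term the value against NTg was 0.19 (adjusted p = 0.56, edgeR), with the caudal Hox level as a term 0.35 (adjusted p = 0.09), with the Y-linked level 0.32 (adjusted p = 0.042), and without Q33;TDP-43 replicate 1 it was 0.30 (adjusted p = 0.12). Without NTg replicate 1, 2 or 3 the adjusted p was 0.067, 0.068 or 0.052 in edgeR. With only the groups compared it was 0.067, 0.063 and 0.14 against NTg, Q22;TDP-43 and TDP-43. Without a filter on low counts it was 0.05 (not called), 0.075 and 0.043 in the same order, all from edgeR. Against Q22;TDP-43 the value with the mitochondrial rRNA term was 0.21 (adjusted p = 0.52) and with the Hox term 0.35 (adjusted p = 0.042), and against TDP-43 these were 0.21 (adjusted p = 0.67) and 0.37 (adjusted p = 0.095). Against Q22;TDP-43 the call was lost without Q22;TDP-43 replicate 2 or 3 (adjusted p = 0.062 and 0.087) or Q33;TDP-43 replicate 1 (0.12), and against TDP-43 without TDP-43 replicate 1 or 3 (0.08 and 0.095) or Q33;TDP-43 replicate 1 (0.12).

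Tia1 (chr6:86404219-86433405, plus strand) was the member with the largest fall. The gene model Gm44790 overlaps it on the same strand, and read pairs in exons of both are not counted, so its level is uncertain. It had 70.4, 60 and 86.7 CPM in Q33;TDP-43 cords, 82.5, 96.2 and 98.6 in Q22;TDP-43 cords, 101, 69.3 and 79.6 in TDP-43 cords, 82.8, 97.0 and 80.3 in Q33 cords, 71.1, 97.1 and 97.2 in Q22 cords, and 94.1, 106 and 106 in NTg cords. The Q33;TDP-43 cords lay below all NTg cords, a separation seen for 30.2% of all genes tested, and overlapped each of the other genotypes. The fold against NTg was 0.71 (log2 -0.49, SE 0.15, adjusted p = 0.04, edgeR), and against Q22;TDP-43, TDP-43 and Q33 the log2 fold changes were -0.35, -0.20 and -0.26 with adjusted p of 0.13, 0.40 and 0.38. The call against NTg was lost with the caudal Hox level as a term (log2 -0.43, adjusted p = 0.19) and with the mitochondrial rRNA share as a term (log2 -0.54, adjusted p = 0.38), and held with the Y-linked level (log2 -0.52, adjusted p = 0.044). It was also lost without NTg replicate 1, 2 or 3 (adjusted p = 0.07, 0.095 and 0.13, edgeR) and without Q33;TDP-43 replicate 1 or 2 (0.14 and 0.16).

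Tial1, the paralog of Tia1, followed it without passing the test. It had 76.5, 69.4 and 85.5 CPM in Q33;TDP-43 cords and 86.2, 96.4 and 96.6 CPM in NTg cords, with no overlap (30.2% of all genes tested did not overlap between these groups). The log2 fold change was -0.27 (SE 0.10, adjusted p = 0.073, edgeR). In the other knock-in genotypes against NTg, the log2 values of Tial1 lay between -0.20 and -0.17 and those of Tia1 between -0.29 and -0.14, with adjusted p of 0.70 or more in edgeR.

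G3bp2 (chr5:92052146-92083719, minus strand) was called by edgeR in a single comparison. It had 476, 439 and 449 CPM in Q33;TDP-43 cords, 423, 373 and 334 in Q22;TDP-43 cords, 353, 403 and 408 in TDP-43 cords, 405, 382 and 399 in Q33 cords, 384, 372 and 357 in Q22 cords, and 372, 407 and 398 in NTg cords. The Q33;TDP-43 cords were above each of the other 15, where 30.2% of all genes tested did not overlap with NTg, 29.2% with Q22;TDP-43, 27.2% with TDP-43 and 22.7% with Q33. Relative to Q22;TDP-43, which differs by the glutamine number, G3bp2 rose 1.21-fold (log2 0.27, SE 0.09, adjusted p = 0.046, edgeR). With Lsm12 this made 2 of 10 members called in that comparison, both higher, where 12.8% of all genes tested were called and 6.67% were called higher. Of the genes at 10 CPM or more, 20.9% were called, so the members' count was close to that background. Relative to NTg, TDP-43 and Q33 the log2 fold changes were 0.21, 0.23 and 0.20 with adjusted p of 0.11, 0.089 and 0.23 in edgeR, and DESeq2 called it against TDP-43 (log2 0.24, adjusted p = 0.036). Scaled by library totals the value against Q22;TDP-43 was 0.04 (adjusted p = 0.77), and without Q22;TDP-43 replicate 3 it was 0.19 (adjusted p = 0.25). The call was also lost without Q22;TDP-43 replicate 2 (adjusted p = 0.12), without Q33;TDP-43 replicates 1, 2 or 3 (0.18, 0.067 and 0.064), and with the caudal Hox level (0.096) or the mitochondrial rRNA share (0.43) as a term, and held with the Y-linked level (0.044). Fits of only the groups compared (0.16) and without a filter on low counts (0.092) lost it too.

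**Figure D3:**
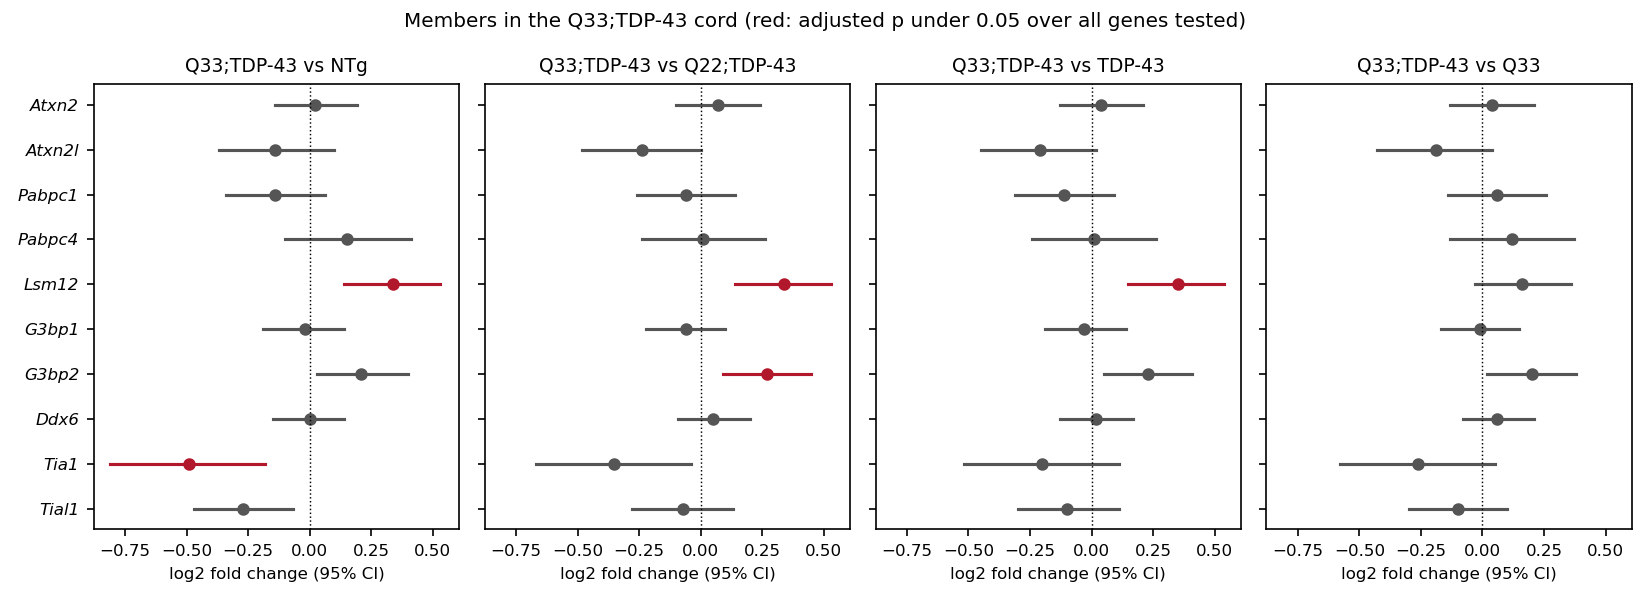
Log2 fold changes of the 10 members with 95% intervals in Q33;TDP-43 against NTg, Q22;TDP-43, TDP-43 and Q33, from left to right. Red marks an adjusted p under 0.05 over all genes tested. Lsm12 is at 0.34, 0.34, 0.35 and 0.16, Tia1 is red in the first panel at -0.49 and G3bp2 in the second at 0.27.

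Against TDP-43, Lsm12 was the 1 of 10 members called by edgeR, where 12.6% of all genes tested were called and 5.98% were called higher. Of the genes at 10 CPM or more, 20.6% were called. Against Q33, 0 of 10 were called, where 0.892% of all genes were called and 1.33% of those at 10 CPM or more. In that comparison 1 member, G3bp2, had an unadjusted p under 0.05 (17.7% of all genes had one). DESeq2 called 0 members there, and 6.69% of the genes to which it gave an adjusted p. The remaining members of the poly(A) group gave no call in these 4 comparisons with TMM. Pabpc1 had 137, 142 and 152 CPM in Q33;TDP-43 cords and 136, 167 and 173 CPM in NTg cords (log2 -0.14, SE 0.10, adjusted p = 0.36), and Pabpc4 had 13.1, 15.8 and 15.5 against 13.1, 13.4 and 13.4 CPM (log2 0.15, SE 0.12, adjusted p = 0.43, edgeR). Atxn2l had 66.1, 81.6 and 66.5 CPM in Q33;TDP-43 cords and 90.8, 73.1 and 71.3 CPM in NTg cords (log2 -0.14, SE 0.11, adjusted p = 0.47, edgeR). With library totals in place of TMM, 5 members were called against NTg, all lower (Atxn2l, Pabpc1, Ddx6, Tia1 and Tial1), where 20.1% of all genes tested were called. The share of higher genes among all calls was 5.04%, against 47.1% with TMM. Against Q22;TDP-43, library totals called 3 members, all lower (Atxn2l, G3bp1 and Tia1), and neither Lsm12 nor G3bp2, and against TDP-43 they called 2, both lower (Atxn2l and Pabpc1), and not Lsm12. Of all genes tested, library totals called 19% against Q22;TDP-43 and 19.8% against TDP-43. The shares of higher genes among all calls were 7.53%, against 51.9% with TMM, and 6.27%, against 47.3%.

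The single knock-ins and Q22;TDP-43 gave no call among the members. In Q22, Q33 and TDP-43 against NTg, 0 of 10 members were called and 0% of all genes, and in Q22;TDP-43 against NTg 0 of 10, where 0.00969% of all genes were called. An unadjusted p under 0.05 was seen for 0 members in Q22 (4.23% of all genes), 1 in Q33 (7.28%), 0 in TDP-43 (4.23%) and 0 in Q22;TDP-43 (2.3%), and DESeq2 called 0 members in each of the 4. In Q33 against Q22, 0 of 10 members and 0% of all genes were called, 0 members had an unadjusted p under 0.05 (2.14% of all genes), and DESeq2 called 0. The 95% interval of Lsm12 in Q22 against NTg, -0.10 to 0.29 on the log2 scale, includes the 0.17 of Q33 against NTg.

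Over all carriers, human TDP-43 (9 against 9 cords) and human ATXN2 (12 against 6) gave 0 of 10 members each, where 0.00485% of all genes were called in each. An unadjusted p under 0.05 was seen for 0 members by TDP-43 (5.91% of all genes) and 2 by ATXN2 (14.6%), and DESeq2 called 0 in each. Lsm12 had a log2 fold change of 0.16 in ATXN2 carriers (95% interval 0.04 to 0.28, adjusted p = 0.22) and Pabpc1 -0.13 (-0.25 to -0.01, adjusted p = 0.32), both in edgeR. Without TDP-43 replicate 2, Lsm12 passed (adjusted p = 0.02). The interaction of Q33 with TDP-43 gave 0 of 10 members, 0% of all genes, 0 members with an unadjusted p under 0.05 (13% of all genes) and 0 by DESeq2. The interaction for Lsm12 was 0.17 on the log2 scale (95% interval -0.10 to 0.45, adjusted p = 0.61). A test of any difference among the 6 genotypes called 0 of 10 members, where 4.16% of all genes were called. Lsm12 and G3bp2 were the 2 members with an unadjusted p under 0.05 (19.4% of all genes), and DESeq2 called 1, Lsm12.

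The caudal Hox level allowed the 3 called members to be set beside it in cords of other genotypes. In Q33 replicates 2 and 3 and Q22;TDP-43 replicate 1, the cords outside Q33;TDP-43 with a Hox level above 0, Lsm12 had 35.5, 37.5 and 31.9 CPM, G3bp2 382, 399 and 423 CPM, and Tia1 97.0, 80.3 and 82.5 CPM. These are given as values, with no test.

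A few pairs of members varied together or in opposite directions across the 18 cords. Of 45 pairs, 3 had an adjusted p under 0.05 for Pearson's r (permutation test, 100000 resamples, Benjamini-Hochberg over the 45). The share of such pairs among all genes was not analysed, so the count has no background. Tia1 and Tial1 varied together, with r = 0.898 and Spearman's rho = 0.891 (permutation p = 1e-05 each, the smallest these resamples can give, and adjusted p = 0.00045 each). The r was 0.852 without the 2 cords farthest from the median of Tia1, and 0.919 on deviations from the genotype means. Atxn2 and Atxn2l moved in opposite directions, with r = -0.727 (permutation p = 0.00064, adjusted p = 0.014) and rho = -0.686 (permutation p = 0.0023, adjusted p = 0.052). It was -0.595 without the 2 farthest cords and -0.735 on deviations from the genotype means. Lsm12 and G3bp2 had r = 0.654 (permutation p = 0.0031, adjusted p = 0.046) and rho = 0.507 (permutation p = 0.034, adjusted p = 0.20), but 0.443 without the 2 farthest cords and 0.329 on deviations from the genotype means, so the pooled value rested in part on differences between genotypes.

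**Figure D4:**
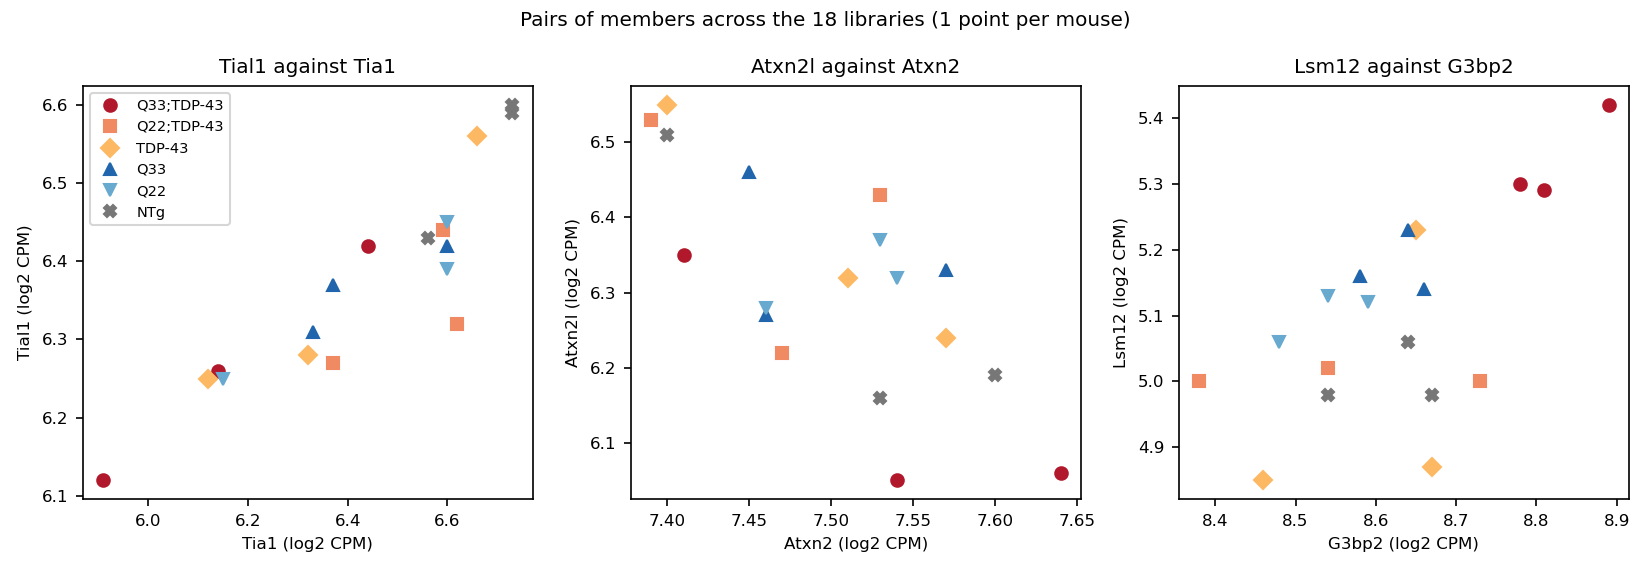
Log2 CPM of Tial1 against Tia1, Atxn2l against Atxn2 and Lsm12 against G3bp2, a point per mouse with colour and shape by genotype. The Tia1 and Tial1 points lie along a rising line (r = 0.898), those of Atxn2 and Atxn2l along a falling line (r = -0.727), and the 3 Q33;TDP-43 cords sit at the upper right of the last panel.

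The share of mitochondrial rRNA counts moved with Lsm12 and Atxn2l. Across the 18 cords, Lsm12 had r = 0.799 with it (permutation p = 0.0001, adjusted p = 0.001 over 10 members) and rho = 0.747 (permutation p = 0.00047, adjusted p = 0.0047). Its r was 0.64 without the 2 farthest cords and 0.466 on deviations from the genotype means. Atxn2l had r = -0.671 (permutation p = 0.002, adjusted p = 0.01) and rho = -0.575 (permutation p = 0.014, adjusted p = 0.07). It was -0.441 without the 2 farthest cords and -0.60 on deviations from the genotype means. The other 8 members had an adjusted p of 0.053 or more, among them G3bp2 with r = 0.558 (permutation p = 0.016, adjusted p = 0.053). How many of all genes moved with the mitochondrial rRNA share was not analysed, so the 2 members have no background. With that share as a term, edgeR called 28 of all genes tested in Q33;TDP-43 against NTg, where it called 2491 without the term.

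**Figure D5:**
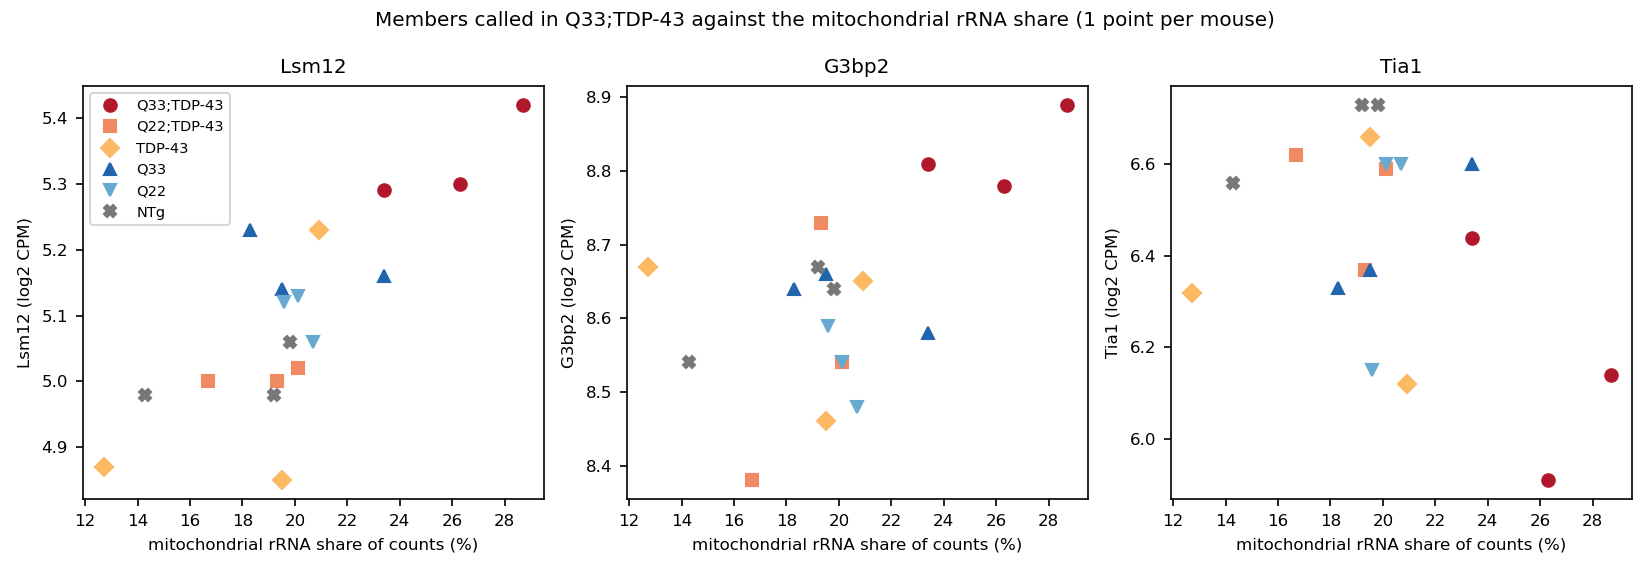
Log2 CPM of Lsm12, G3bp2 and Tia1 against the percent of counts on mitochondrial rRNA, a point per mouse with colour and shape by genotype. The 3 Q33;TDP-43 cords lie at 23.4% to 28.7% and hold the highest Lsm12 and G3bp2 values, and r over the 18 cords is 0.799 for Lsm12, 0.558 for G3bp2 and -0.39 for Tia1.

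The balance within paralog pairs gave no difference past the test between human TDP-43 carriers and non-carriers. Within ATXN2 states, the mean log2 ratio of levels per length was 0.52 in carriers and 0.53 in non-carriers for Atxn2l over Atxn2, -2.64 and -2.75 for Pabpc4 over Pabpc1, 2.92 and 2.88 for G3bp2 over G3bp1, and 1.16 and 1.09 for Tial1 over Tia1. The two-sided exact permutation p was 0.93, 0.12, 0.54 and 0.26 (adjusted over the 4 ratios 0.93, 0.49, 0.72 and 0.52), over 8000 arrangements. In Q33;TDP-43 against NTg, G3bp2 over G3bp1 was 3.12 ± 0.127 and 2.88 ± 0.109 and Tial1 over Tia1 was 1.29 ± 0.116 and 1.06 ± 0.00371 (SD, n = 3 each). Pabpc4 over Pabpc1 was -2.58 ± 0.108 and -2.87 ± 0.169, and Atxn2l over Atxn2 was 0.33 ± 0.281 and 0.49 ± 0.287. The two-sided exact permutation p was 0.2, 0.1, 0.2 and 0.5 in this order (adjusted over the 4 ratios 0.27, 0.27, 0.27 and 0.5). With 3 against 3 the unadjusted p cannot go below 0.1.

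The genes most like Atxn2 over the 18 cords, among 9253 others at 10 CPM or more, were Psme4, a proteasome activator (r = 0.896), Togaram1, a microtubule regulator of cilia (r = 0.885), Etnk1, an ethanolamine kinase (r = 0.884), Dmxl1 (r = 0.878) and Bicd1, a dynein adaptor (r = 0.877). They are given as a description, since all share the libraries and their scaling. Among the other members Tial1 ranked highest, at 949, and Atxn2l at 9164 of 9253.

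Wider machinery of poly(A) tails and granules showed calls in Q33;TDP-43 against NTg. The background was 12.1% of all genes tested and 18.8% of the genes at 10 CPM or more. Of the poly(A) tail and cap-binding partners, 4 of 20 tested were called, 3 higher and 1 lower (median log2 fold change 0.11). Paip2, an inhibitor of poly(A)-binding protein, had 198 ± 16.8 CPM in Q33;TDP-43 cords and 155 ± 6.47 CPM in NTg cords (SD, n = 3 each, log2 0.36, SE 0.09, adjusted p = 0.016, edgeR), and Eif4a2, an RNA helicase of translation initiation, had 587 ± 94.4 and 438 ± 50.2 CPM (log2 0.42, SE 0.11, adjusted p = 0.018). Pabpc5, an X-linked poly(A)-binding paralog, was lower (2.87 ± 0.519 and 5.23 ± 1.08 CPM, log2 -0.86, SE 0.22, adjusted p = 0.016, edgeR). Of the 6 fits that each left out a cord, 4 called Paip2, 4 Eif4a2 and 2 Pabpc5. Of the 9 other alternative fits, 5 called Paip2, 5 Eif4a2 and 7 Pabpc5. Pabpc1l was not tested, with at most 9 counts in any library.

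Of 17 deadenylation genes 1 was called, Btg1, an adaptor of the deadenylase complex, at 9.98 ± 0.22 CPM in Q33;TDP-43 cords and 14.2 ± 1.14 CPM in NTg cords (log2 -0.51, SE 0.14, adjusted p = 0.023, edgeR), with a list median of -0.06. Of 23 decapping and P-body genes 6 were called, 2 higher and 4 lower (median -0.04). Dcp2, the decapping enzyme, had 256, 228 and 261 CPM in Q33;TDP-43 cords and 183, 186 and 180 CPM in NTg cords (log2 0.44, SE 0.08, adjusted p = 0.0024, edgeR). Lsm6, a subunit of the Lsm ring, rose by 0.47 (SE 0.12, adjusted p = 0.02) and Dcp1b, a decapping cofactor, fell by 0.44 on the log2 scale (SE 0.13, adjusted p = 0.029, edgeR). Dcp2 kept its call without each of the 6 cords in turn (adjusted p 0.0028 to 0.018), and lost it with library totals (log2 0.20, adjusted p = 0.11) and with the mitochondrial rRNA term (log2 0.42, adjusted p = 0.18, edgeR). Btg1, Lsm6 and Dcp1b were each called in 2 of the 6 fits that left out a cord. Of the 9 other alternative fits, 7 called Btg1, 5 Lsm6 and 5 Dcp1b.

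Of 29 stress granule genes 3 were called, 1 higher and 2 lower (median 0.04). Stau2, a double-stranded RNA-binding protein of neuronal transport granules, had 201, 167 and 177 CPM in Q33;TDP-43 cords and 122, 139 and 124 CPM in NTg cords (log2 0.50, SE 0.09, adjusted p = 0.0029, edgeR). The groups did not overlap, as for 30.2% of all genes tested. Serbp1 and Pum2, RNA-binding proteins of the ribosome and of translational repression, both fell by 0.28 on the log2 scale (SE 0.08 and 0.09, adjusted p = 0.037 and 0.048, edgeR). Of the 6 fits that each left out a cord, 6 called Stau2, 1 called Serbp1 and 1 called Pum2. Of the 9 other alternative fits, 8 called Stau2, 5 Serbp1 and 2 Pum2. With the mitochondrial rRNA share as a term, 0 genes of each of the 4 lists were called. With library totals the splits were 0 higher and 3 lower, 0 and 5, 0 and 10, and 1 and 7 for the poly(A), deadenylation, decapping and stress granule lists. At that scaling 20.1% of all genes tested were called. Without Q33;TDP-43 replicate 1 the poly(A), deadenylation, decapping and stress granule lists had 0, 0, 1 and 1 genes called. Without Q33;TDP-43 replicate 2 they had 2, 0, 1 and 1. The lists' genes differ in their main cell types, and the neuronal markers higher in the same cords are given above. Their part in these values was not tested.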

How the data were processed

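Whole-number counts per gene were deposited by the authors for 18 libraries of spinal cord. Per the file headers they were made with featureCounts 1.6.1, by strand and read pair, over exons of GENCODE M19, from TopHat alignments to mm10 (GRCm38.p6). Trim Galore 0.4.1, TopHat2, featureCounts and DESeq2 are named in the submitters' processing notes. Per the labels' protocols, ribosomal RNA was depleted and stranded total RNA libraries were sequenced in read pairs. Read pairs matching several places or genes are not counted at these settings, which lowers genes with near-identical copies. The sources used here give no sex, litter, batch or level of dissection, and human reads were not analysed.

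The counts were tested with edgeR 4.0.16 (limma 3.58.1, R 4.3.3), quasi-likelihood, with TMM scaling and its filter for low counts, in 1 fit of all 18 libraries with a term per genotype. Adjusted p-values are Benjamini-Hochberg over 20635 genes, with a threshold of 0.05 and two-sided tests, and log2 CPM used a prior count of 2. Levels between genes are TPM from counts and the exon lengths in the file. DESeq2 1.42.0, other scalings, filters and covariates and each library left out were alternatives. The named genes were all 10 members, Tardbp, the 3 called genes with the smallest adjusted p of each partner list in Q33;TDP-43 against NTg, and the 5 genes most like Atxn2. Symbols were found for 54409 of 54446 gene IDs. The members and lists were chosen with earlier results of these data known. The test was checked on simulated counts, in which most genes changed by about the folds of Lsm12 and G3bp2 were not called. Far fewer genes were changed there than were called in the Q33;TDP-43 comparisons, which makes the adjustment stricter. The share recovered there cannot be carried over to these data. At these depths 3 counts correspond to 0.101 to 0.176 CPM, a floor that covers counting error only. Replicate numbers only name an animal.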

Additional observations from a re-analysis of the deposited data

Results flagged for a closer look

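For Lsm12 the cords with human TDP-43 lay on opposite sides of those without it in the Q33 and Q22 states, and the gene was picked by that pattern. Of all genes tested, 22.7% did not overlap between Q33;TDP-43 and Q33. The share between Q22;TDP-43 and Q22 was not analysed. With Q33, the TDP-43 carriers had 42.9, 39.4 and 39.2 CPM, above the 35.3, 35.5 and 37.5 CPM of Q33 alone, and with Q22 the carriers had 31.9, 32.4 and 31.8 CPM, below the 34.6, 34.8 and 33.2 CPM of Q22 alone. The log2 fold changes were 0.16 in Q33 and -0.09 in Q22, a difference of 0.26 (SE 0.13, unadjusted p = 0.062, adjusted p = 0.36 over 20635 genes, edgeR). This contrast was chosen after the data were seen and did not pass the test. It called 0 of 10 members, where 0.344% of all genes tested were called. An unadjusted p under 0.05 was seen for 0 members and for 3141 of the 20635 genes.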

How the results depend on the processing

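No paired analysis was possible because the labels give no shared replicate numbers. Every named value called as reported kept its direction under the alternatives run, while 60 of 104 values never called changed sign under an alternative. Called only with library totals, with the other sign under another alternative, were Atxn2l against NTg (log2 -0.38 to 0.14 over the alternatives) and TDP-43 (-0.45 to 0.06), Ddx6 against NTg (-0.24 to 0.04) and G3bp1 against Q22;TDP-43 (-0.29 to 0.02). The counts moved as follows, in Q33;TDP-43 against NTg, Q22;TDP-43 and TDP-43 (2, 2 and 1 members as reported). With the caudal Hox level as a term the counts were 0, 1 and 0, with the mitochondrial rRNA share 0, 0 and 0, and with only the groups compared 1 (Tia1), 0 and 0. Without a filter on low counts they were 1 and 1 against NTg and Q22;TDP-43, and the any-difference test called 1. The member called in these 2 comparisons was Tia1 (adjusted p = 0.00065 and 0.022, edgeR). Lsm12 was not called in either (0.05 and 0.075), nor G3bp2 against Q22;TDP-43 (0.092). With library totals they were 5, 3 and 2, all lower, where 20.1%, 19% and 19.8% of all genes tested were called. At that scaling 5 of the 10 members, against 9 as reported, ranged less than 1.5-fold over the cords. DESeq2 called 2 against TDP-43, where it called 19.6% of the genes to which it gave an adjusted p, and 1 in the any-difference test.

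Of the partner lists in Q33;TDP-43 against NTg (4, 1, 6 and 3 genes called as reported, for poly(A) and cap, deadenylation, decapping and stress granule), the caudal Hox term left 0, 0, 1 and 1 and the mitochondrial rRNA term 0 of each. Library totals gave 3 poly(A), 5 deadenylation, 10 decapping and 8 stress granule genes, of which 1 stress granule gene was higher and the others lower. No filter gave 3 decapping and 1 stress granule gene, only the groups compared gave 1 poly(A), 1 decapping and 1 stress granule gene, and DESeq2 gave 6 stress granule genes. Over all genes, Q33;TDP-43 against NTg called 2491 genes as reported, 531 with the Hox term, 28 with the mitochondrial rRNA term and 4145 with library totals. Leaving out each library in turn gave 0 to 3 members against NTg, 0 to 2 against Q22;TDP-43, 0 to 1 against TDP-43, 0 to 1 for ATXN2 carriers and 0 to 1 for any difference. The lists ranged from 0 to 4 poly(A), 0 to 2 deadenylation, 1 to 6 decapping and 1 to 4 stress granule genes. Paralog ratios gave 0 differences throughout. With 3 cords a group, a p-value measures the spread between these animals only.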
